A study of Mus musculus with 8 samples.

Results

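Islets of male C57BL/6J mice on high fat diet (HF) or regular chow (NC) were compared for 48 genes of ducts, epithelial cells, cell junctions, claudins and annexins. The genes were listed by name, and every probe set annotated to exactly 1 of them was taken, which gave 87 of the 45101 probe sets of the array, for 47 of the 48 genes. Spp1 was not measured here. Of the 87 probe sets, 67 (41 genes) passed a filter on low values, and these are called measured below. The filter asked that the third-highest intensity over the 8 samples be at least 8.82, without regard to diet, so that a gene could pass through 1 diet alone. The genes that did not pass were Krt20, Aqp5, Wfdc2, Cldn8, Cldn10 and Cldn18. The list was read in 4 classes, namely 16 duct-restricted genes, 16 pan-epithelial genes, 11 claudins and 5 annexins. Duct-restricted is the name of a list here, since several of its genes are also made by other cells.

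The HF group had 4 samples (replicates 21, 22, 23 and 24) from mice on a diet with 45 kcal% fat, and the NC group had 4 samples (replicates 1, 2, 4 and 5) from mice on regular rodent chow. Both groups started at weaning, at an age of 4 weeks, and the sample labels give 12 weeks on diet while the methods give a longer time. All mice of both groups carry the natural deletion in Nnt of this strain. Islets were freed with collagenase, enriched on Ficoll and picked by hand, and the islets of a pair of mice were combined for each sample, so that n counts pools and each p measures the spread between pools. Each sample was measured on 1 array as GCRMA intensities, which are summaries of probe brightness already adjusted for background and normalized across arrays. In this unit the median of all probe sets was 13.03 to 13.8 per array. The hormone genes of islets were bright in every sample, with Ins2 at 71683 to 74310 in HF and 67032 to 68077 in NC. Genes of acinar cells, the exocrine cells around islets, were bright as well, and their summed intensity over 11 measured genes was 388189 to 444382 in HF and 354323 to 454028 in NC. The diets overlapped in this sum.

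Pancreatic ducts are tubes of simple epithelium that carry enzymes and bicarbonate to the gut, and their cells are known for keratins 7 and 19, chloride channels and water pores. Endocrine cells of the islet are epithelial too and hold together through E-cadherin, claudins, occludin and desmosomes, so that pan-epithelial genes are shared by endocrine, acinar and duct cells. Tight junctions seal the space between neighboring cells and desmosomes anchor their keratin filaments, while annexins bind membrane phospholipids when calcium rises and are made by many cell types, stromal and blood-borne cells among them.

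Annexins A1 and A2 and the water pore Aqp1 were lower in HF islets, and no pan-epithelial gene was called when each was represented by 1 probe set. With limma on log2 intensity, a probe set was called when its adjusted p was under 0.05 and it differed at least 1.5-fold. Of the 67 measured probe sets 3 were called lower in HF (Anxa1, Anxa2 and Aqp1), against 3.06% of all measured probe sets of the array, and 1 was called higher (1 of 2 for desmocollin 2, Dsc2), against 0.644%. All 4 HF samples lay below all 4 NC samples for 9 of the 67, against 7.84% of all, and above them for 2, against 6.81%. By gene, 3 of 41 were called lower and 0 higher, against 4.28% and 0.447% of all measured genes. Calls as few as these were near the background of the array. An unadjusted p under 0.05 was reached by 20 of the 67 probe sets, against 20.8% of all measured probe sets.

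The classes are described by their medians and counts. With 1 probe set per gene, the median log2 fold change (HF minus NC) was -0.76 over the 5 annexins, with a range of -1.85 to -0.02. Over the 12 measured duct-restricted genes it was -0.27 (-3.06 to 0.38), over the 16 pan-epithelial genes 0.02 (-0.27 to 0.47) and over the 8 measured claudins -0.01 (-0.26 to 0.32). The median over all 12299 genes measured this way was 0.00. Of the pan-epithelial genes 12 of 16 lay within 0.2 of no change on the log2 scale, against 4 of 12 duct-restricted genes and 72.5% of all genes. The pan-epithelial share was thus near that of the array. All 4 HF samples lay below all 4 NC samples in 4 of 5 annexins and 4 of 12 duct-restricted genes, and in 1 of 16 pan-epithelial genes and 0 of 8 claudins, against 10.3% of all genes. The duct-restricted count includes Krt19, which passed the filter through NC alone and therefore had to differ, and is 3 without it. All 4 HF samples lay above all 4 NC samples in 1 of the 41 genes (Cgn), against 5.75% of all. These are descriptions of lists, and no test was made of one list against another. Without the filter on low values the duct-restricted median was -0.031, and with arrays scaled on beta cell genes it was -0.40 and the pan-epithelial median turned to -0.12.

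**Figure D1:**
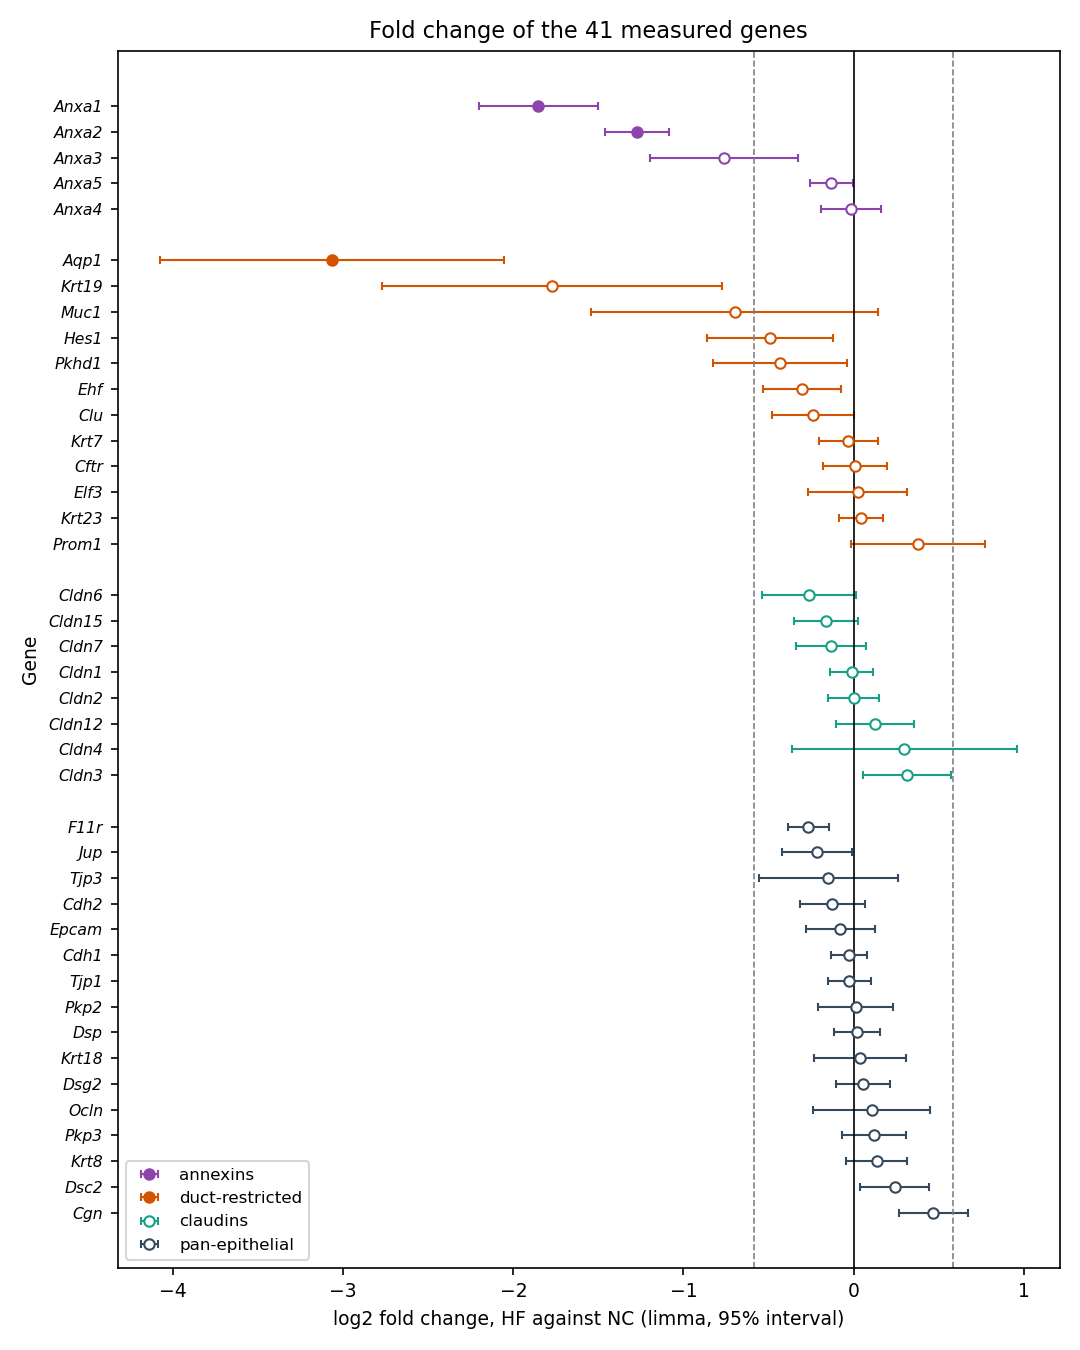
Log2 fold change (HF against NC) of the 41 measured genes, 1 probe set each, with the 95% interval of limma, by class. Filled points passed the adjusted p and the fold limit, dashed lines mark a fold of 1.5, and the 3 filled points are Anxa1, Anxa2 and Aqp1, while all pan-epithelial genes and claudins sit between the lines.

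The median of the 12 duct-restricted genes lay below NC in every HF sample, although 4 of the 12 had a positive log2 fold change and 1 was called. Taken against the mean of NC, it was -0.16, -0.24, -0.17 and -0.17 on the log2 scale in HF samples 21, 22, 23 and 24, and it was between -0.07 and -0.01 in the NC samples. The median of the pan-epithelial genes was between -0.02 and 0.02 in HF samples and between -0.05 and 0.08 in NC samples. The diets thus overlapped in the pan-epithelial median and did not overlap in the duct-restricted median. Taking each gene against its NC mean keeps the NC medians close to that mean but not the HF medians, which favors a lack of overlap. The duct-restricted median rests on 12 genes of very different brightness, among them Krt19, which passed the filter through NC alone. In the summed intensity of these 12 genes the diets did overlap, at 22217 to 24463 in HF and 23953 to 26950 in NC. Most of this sum came from the brightest genes, Clu, Prom1 and Krt7, so that it says little about the others. The annexin median was -0.69, -0.70, -1.05 and -0.38 in HF, against -0.02 to 0.01 in NC.

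Anxa1 encodes annexin A1, a phospholipid-binding protein known for its part in restraining inflammation, and lies at chr19:20373434-20390671 (GRCm38.p6). Its intensity was 102, 124, 79.4 and 96.3 in HF samples 21, 22, 23 and 24, against 312, 352, 342 and 437 in NC samples 1, 2, 4 and 5. The highest HF sample was well below the lowest NC sample. The log2 fold change was -1.85 (SE 0.15, adjusted p = 0.000982), which put HF at 0.277 of NC.

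Anxa2, at chr9:69453683-69491792, encodes annexin A2, which binds the cell membrane and the actin skeleton and acts at the cell surface together with the small protein S100A10. Its intensity was 342, 335, 423 and 352 in HF, against 825, 884, 907 and 881 in NC. Each diet was tight and the gap between the diets was wide, with a log2 fold change of -1.27 (SE 0.08, adjusted p = 0.000982) and HF at 0.414 of NC. Exact permutation over the 70 arrangements of the 8 samples gave p = 0.0286 (two-sided) for Anxa1 and for Anxa2, the smallest p that 4 against 4 allows.

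The other annexins were not called. Anxa3, which encodes annexin A3, was at 251, 249, 167 and 312 in HF and at 466, 333, 409 and 425 in NC. All HF samples were below all NC samples, but HF 24 and NC 2 were close, and the fold change of -0.76 (log2, SE 0.19) missed the threshold with an adjusted p of 0.0560. Annexin A5, known from its use as a probe for dying cells, was bright on the array. Anxa5 was at 14547, 13514, 13948 and 14511 in HF and at 16385, 15620, 15274 and 14635 in NC, so that the diets did not overlap while the difference was only -0.13 (log2, interval -0.26 to -0.0035, adjusted p = 0.227). Anxa4, made in epithelial cells including those of ducts, had 3 measured probe sets with log2 fold changes of -0.02, 0.12 and 0.06, and the diets overlapped in all 3.

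**Figure D2:**
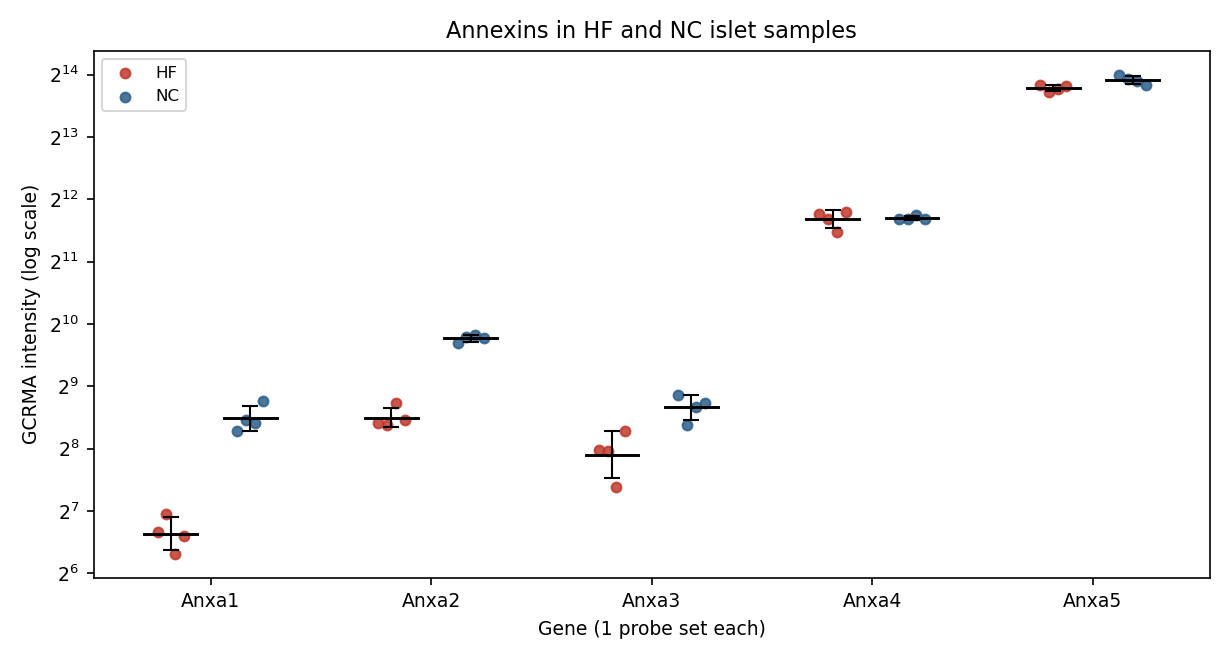
GCRMA intensity (log scale) of 5 annexins, 1 probe set each, in the 4 HF and 4 NC samples, with points for samples and bars for the mean and SD of log2 values. Anxa1 (79.4 to 124 in HF, 312 to 437 in NC) and Anxa2 (335 to 423 in HF, 825 to 907 in NC) are clearly separated, Anxa4 overlaps, and heights of different probe sets are not comparable.

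The promoters of the called annexins and of Anxa5, which was not called, are shown because Anxa1, Anxa2 and Anxa5 belong to 1 family and were measured side by side. The 250 bases before each gene's start are given from RefSeq (GRCm38.p6), 5′ to 3′ on the strand of the gene, at chr19:20390672-20390921 (minus strand) for Anxa1, chr9:69453433-69453682 (plus strand) for Anxa2 and chr3:36475888-36476137 (minus strand) for Anxa5. Capitals mark matches, on either strand, to TATAAA, known as the TATA box, to CCAAT, which is named by its letters, to GGGCGG, known as the GC box, or to TGANTCA, known as the AP-1 motif.
Anxa1: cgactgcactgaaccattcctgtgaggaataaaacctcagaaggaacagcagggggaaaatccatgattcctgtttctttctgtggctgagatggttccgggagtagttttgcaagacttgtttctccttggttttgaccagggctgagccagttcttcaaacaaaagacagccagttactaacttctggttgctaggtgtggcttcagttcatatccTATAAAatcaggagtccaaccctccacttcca
Anxa2: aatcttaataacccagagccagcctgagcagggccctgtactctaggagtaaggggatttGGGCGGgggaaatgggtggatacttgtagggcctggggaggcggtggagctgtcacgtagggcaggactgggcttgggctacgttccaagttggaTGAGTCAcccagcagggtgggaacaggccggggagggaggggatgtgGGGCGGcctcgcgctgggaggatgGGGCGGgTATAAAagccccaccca
Anxa5: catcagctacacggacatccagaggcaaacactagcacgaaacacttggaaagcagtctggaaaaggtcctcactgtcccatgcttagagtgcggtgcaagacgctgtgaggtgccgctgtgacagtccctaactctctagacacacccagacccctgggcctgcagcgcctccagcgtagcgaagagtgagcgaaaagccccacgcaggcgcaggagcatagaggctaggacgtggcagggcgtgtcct
Anxa1 had 1 match, TATAAA starting 32 bases before the start. Anxa2 had TATAAA at 17 bases, GGGCGG at 190, 48 and 24 bases and TGANTCA at 95 bases before the start, and Anxa5 had none of the 4. Of 32851 promoters of this length 12.4% held TATAAA, 33.8% CCAAT, 32.7% GGGCGG and 6.75% TGANTCA. Of the 48 genes 36 had a promoter in the table, and matches were found in 6 (TATAAA), 9 (CCAAT), 20 (GGGCGG) and 5 (TGANTCA) of these 36. The GC content was 46% for Anxa1, 62.4% for Anxa2 and 58.8% for Anxa5. A match is only a stretch of letters, and binding was not measured.

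Among duct-restricted genes 1 of the 17 measured probe sets passed the test, that of Aqp1. Aqp1 encodes the water pore aquaporin 1, which is known from duct cells but also from capillary endothelium and red blood cells, and lies at chr6:55336299-55348555. Its intensity was 69.6, 200.4, 139 and 44.9 in HF samples 21, 22, 23 and 24, against 880.0, 671, 703 and 1027 in NC samples 1, 2, 4 and 5. The highest HF sample was far below the lowest NC sample, and the HF samples differed widely among themselves. The log2 fold change was -3.06 (SE 0.44, adjusted p = 0.00680), the largest of the 67 probe sets, with HF at 0.120 of NC.

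The promoter of Aqp1 is shown beside those of the annexins because its gene fell in the same samples. It covers chr6:55336049-55336298 (GRCm38.p6, plus strand), is taken from RefSeq, and has a GC content of 62%. Capitals mark matches to the same 4 motifs.
Aqp1: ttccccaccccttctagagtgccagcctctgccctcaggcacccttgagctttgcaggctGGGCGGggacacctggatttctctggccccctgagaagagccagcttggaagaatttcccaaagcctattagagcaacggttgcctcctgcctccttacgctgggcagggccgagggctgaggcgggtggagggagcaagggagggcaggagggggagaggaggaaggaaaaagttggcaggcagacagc
It had 1 match, GGGCGG starting 190 bases before the start, and no TATAAA.

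Of the 4 keratins listed as duct-restricted 3 were measured, at very different levels. Krt19, a keratin of duct cells, was at 8.53, 5.93, 5.34 and 5.15 in HF and at 13.4, 40.4, 32.8 and 10.7 in NC. All HF samples were below the limit of the filter, 8.82, and NC was low as well, so that Krt19 passed the filter through NC alone. With values raised to that limit the ratio of NC to HF was 2.37, but its direction was fixed by the way Krt19 passed the filter. Limma on the raised values gave an adjusted p of 0.129. On the values as deposited the adjusted p of limma was 0.0534, and neither passed. Because of the way Krt19 passed the filter, no fall is read from these values. Krt7, the other keratin of the duct, was far above the filter limit. It was at 3246, 2819, 3379.9 and 3100.0 in HF, against 2946, 3393, 3354 and 3117 in NC, with overlapping diets and a difference of -0.03 (log2, interval -0.21 to 0.14). Krt19 and Krt23 were low in the same samples, and which cells gave the Krt7 signal was not tested. Krt23 stayed under the array median in all 8 samples, at 8.95 to 10.3 in HF and 9.06 to 9.47 in NC, and its difference was 0.04.

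The genes that carry salt and fluid in ducts gave little signal apart from Aqp1. Cftr, the chloride channel of ducts, was under the array median in all samples at 10.1 to 12.9 in HF and 10.8 to 12.0 in NC, with a log2 difference of 0.01. Pkhd1, a protein of the primary cilium, was at 102 to 166 in HF and 155 to 203 in NC, with a difference of -0.43 (interval -0.82 to -0.04, adjusted p = 0.197). Of the mucins and apical proteins, Muc1 was near the filter limit at 4.22 to 10.7 in HF and 5.56 to 13.5 in NC, and no fold is given for it. Prom1, the membrane protein prominin 1 of apical protrusions, was the duct-restricted gene with the highest fold change. It was at 8052, 6062, 4742 and 7369 in HF and at 5400, 4341, 5606 and 4527 in NC. HF 21, 22 and 24 lay above all NC samples and HF 23 among them, and the difference of 0.38 (log2, interval -0.01 to 0.77) did not pass (adjusted p = 0.258).

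Clu, which encodes the secreted chaperone clusterin, was measured by 4 probe sets that agreed in size. The brightest of them was at 10991, 14890, 13454 and 13230 in HF and at 14492, 14855, 14877 and 17638 in NC. HF 22 lay inside the NC range and the other HF samples below it. The 4 log2 fold changes were between -0.24 and -0.20, with adjusted p of 0.176 to 0.248, and 3 of these probe sets carry the suffix that marks possible binding to related transcripts.

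No transcription factor of duct cells was called. Hes1, the Notch target that keeps progenitors from endocrine fate, was at 68.3, 57.5, 44.3 and 50.1 in HF and at 97.8, 68.8, 69.5 and 73.0 in NC. The diets did not overlap, but HF 21 and NC 2 were almost equal, and the difference was -0.49 (log2, SE 0.16, adjusted p = 0.125). Ehf, an ETS factor of epithelia, was at 236, 213, 227 and 181 in HF and at 239, 260.3, 295 and 260.2 in NC for the probe set with the highest mean. Its 3 probe sets gave -0.30, -0.34 and 0.07 (adjusted p = 0.128, 0.239 and 0.703), so that they did not move alike. Elf3, a related ETS factor, differed by 0.02.

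**Figure D3:**
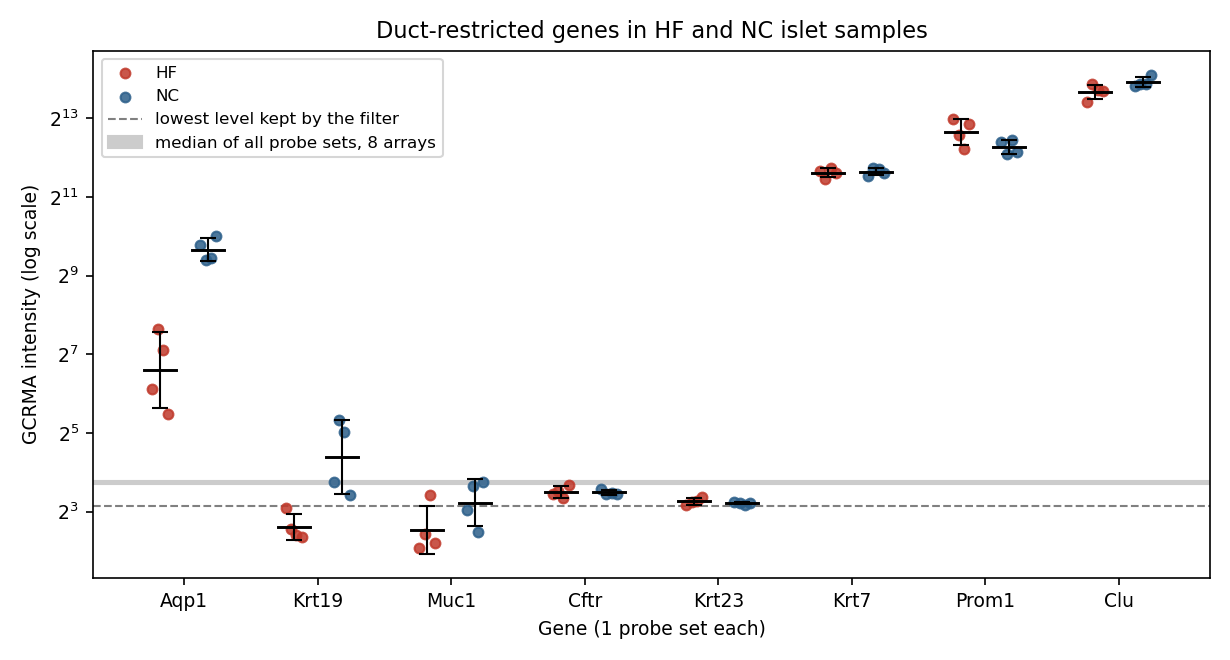
GCRMA intensity (log scale) of 8 duct-restricted genes, 1 probe set each, in the 4 HF and 4 NC samples, with points for samples and bars for the mean and SD of log2 values. Aqp1 separates widely (44.9 to 200.4 in HF, 671 to 1027 in NC), Krt19 falls under the dashed line at 8.82 in HF, Cftr, Krt23 and Muc1 stay at or under the gray array median, and Krt7 overlaps.

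Markers of other cells moved in the same samples, and this is given beside the genes they accompany. Of 11 markers of fibroblasts and stellate cells, the matrix-making cells of the pancreas, all 11 were called lower in HF with a median log2 fold change of -2.42, and their summed intensity was 3071 to 5272 in HF and 13834 to 19693 in NC. The 3 brightest of them were Col3a1 at -2.05, Vim at -1.81 and Dcn at -2.42. Over all measured genes 4.28% were called lower, the share beside which the counts of this paragraph stand. Of 9 measured endothelial markers 2 were called lower (median -0.55), with sums of 13013 to 14600 in HF and 17015 to 19722 in NC. Of 9 macrophage markers 5 were called lower (median -0.77, sums 1313 to 1485 in HF and 2652 to 3144 in NC) and of 6 Schwann cell markers 4 (median -1.06, sums 437 to 578 in HF and 1290.2 to 1450.0 in NC). None of the summed levels of these 4 lists overlapped between the diets, as for Anxa1, Anxa2 and Aqp1. The sum of 4 delta and PP cell markers did not overlap either (0 called, median -0.34, sums 82591 to 95187 in HF and 99522 to 101391 in NC), while that of 4 alpha cell markers did (0 called, sums 169891 to 181612 in HF and 173559 to 176305 in NC). Of the mesothelial markers 2 of 7 were measured and 1 was called lower (Gpm6a, -1.05), while Msln was level at 0.05. Among acinar markers 0 of 11 were called (median -0.02) and among beta cell markers 0 of 11 (median 0.11), although the beta cell sum was 311209 to 329393 in HF and 292753 to 299705 in NC. The part of these cells in the values of Anxa1, Anxa2, Anxa3, Aqp1 and Krt19, and of S100a6 and S100a10 given further on, was not tested. In bulk RNA, fewer cells of a type and less RNA per cell cannot be told apart.

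The order of the samples by Aqp1 was that of the fibroblast and stellate sum within HF. Within NC it was the same except that NC 2 and NC 4 changed places. Aqp1 was lowest in HF 24, then HF 21, HF 23 and HF 22, and the summed fibroblast and stellate markers were 3071, 3765, 4301 and 5272 in these same samples. In NC, Aqp1 was lower in NC 2 (671) than in NC 4 (703), while the sum was higher in NC 2 (14276) than in NC 4 (13834). NC 1 and then NC 5 followed above both in Aqp1 (880 and 1027) and in the sum (16892 and 19693). The endothelial sum had nearly the same HF order, at 13013, 13185, 13351 and 14600 in HF 21, HF 24, HF 23 and HF 22. It too was higher in NC 2 (18194) than in NC 4 (17015), with NC 1 and then NC 5 above both. The orders thus do not single out 1 list. Anxa1 and Anxa2 did not keep the HF order of Aqp1, since Anxa1 was lowest in HF 23 and Anxa2 was highest there. These orders are over 4 samples of a diet and carry no test.

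**Figure D4:**
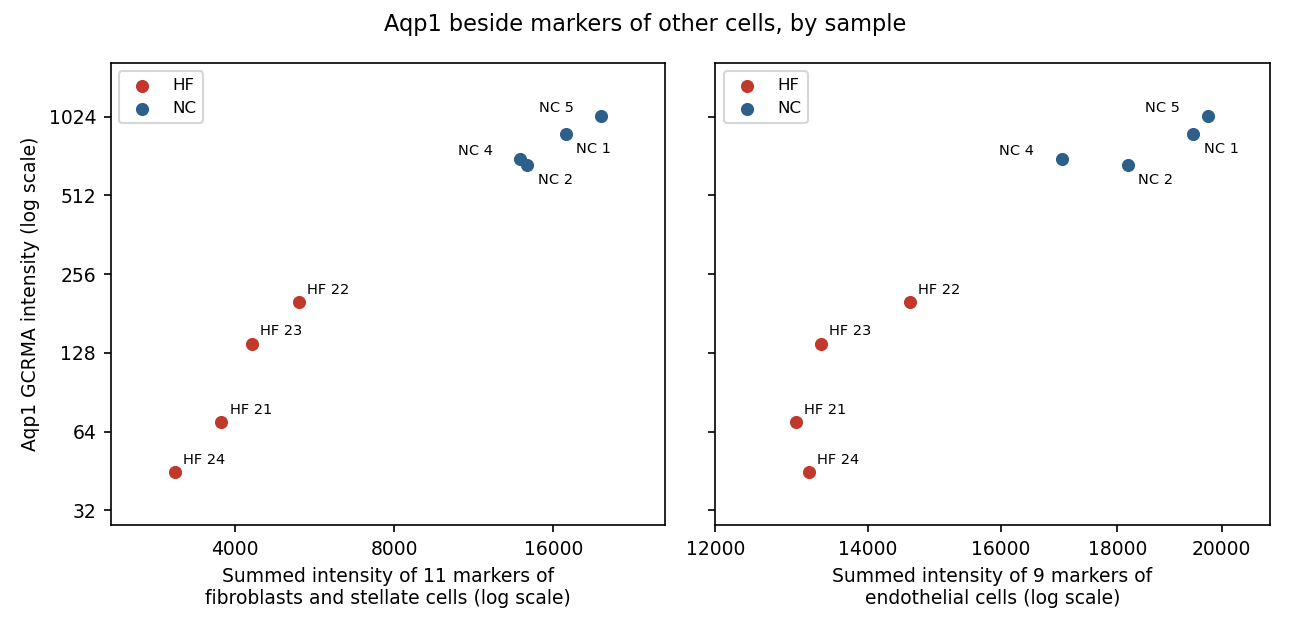
Aqp1 intensity of each sample (log scale) against the summed intensity of 11 fibroblast and stellate cell markers (left) and 9 endothelial markers (right), both on log scales. HF samples (Aqp1 at 44.9 to 200.4) and NC samples (671 to 1027) form separate clusters in both panels, and no correlation is given because of this.

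Pan-epithelial genes were measured in full, by 31 probe sets of 16 genes. The keratin pair of simple epithelia, Krt8 and Krt18, which endocrine cells also make, was level, with 3 probe sets of Krt8 at 0.06 to 0.14 and Krt18 at 0.04 (log2). Cdh1, the E-cadherin of adherens junctions, was at 13254, 12669, 12794 and 13286 in HF and at 13239, 12978, 13426 and 13359 in NC. The diets overlapped, and the interval of the difference, -0.13 to 0.08, left room for little change. Cdh2, the N-cadherin that endocrine cells carry as well, had differences of -0.13 and 0.01, and Epcam, an epithelial adhesion molecule, -0.08 and -0.05.

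At the tight junction 2 genes moved by less than the fold limit and in opposite directions. Cgn encodes cingulin, which links the junction to actin and myosin, and was at 399, 431, 449.6 and 499.6 in HF, against 321, 353, 288 and 323 in NC. All HF samples lay above all NC samples (log2 difference 0.47, SE 0.09, adjusted p = 0.0211), at 1.38 times NC. F11r encodes the adhesion molecule JAM-A, which sits in the membrane next to the claudins and is also found on endothelial and blood cells. It was at 679, 669, 654 and 619 in HF and at 777, 803, 805 and 764 in NC, with all HF samples below all NC samples (-0.27, SE 0.05, adjusted p = 0.0228) and HF at 0.832 of NC. Without a fold limit 4.13% of all measured probe sets passed lower and 2.03% higher. Neither gene kept an adjusted p of limma under 0.05 with every sample left out in turn. It rose to 0.0587 for Cgn without NC 1 and to 0.0637 for F11r without NC 2. The scaffold Tjp1 (ZO-1) differed by -0.02, with an interval of -0.15 to 0.10, and Tjp3 by -0.15, with a wider interval of -0.56 to 0.26. Occludin, Ocln, gave 0.11 and -0.07.

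Desmosome genes held the only rise past both limits, in 1 of 16 probe sets. Dsc2 encodes the desmosomal cadherin desmocollin 2, and the 2 probe sets of this gene are told apart here as the dimmer and the brighter. The dimmer was at 116, 126, 95.4 and 118 in HF and at 91.5, 69.4, 57.4 and 51.7 in NC. The diets did not overlap, but HF 23 and NC 1 were close (log2 fold change 0.78, SE 0.18, adjusted p = 0.0415, HF at 1.72 times NC). The brighter was at 557, 482, 565 and 591 in HF and at 524, 430, 459 and 444 in NC, where NC 1 lay among the HF samples and the difference of 0.24 did not pass (adjusted p = 0.166). Within a sample, the log2 of the dimmer minus that of the brighter was higher in HF by 0.54 (mean -2.27 in HF and -2.81 in NC, exact permutation p = 0.0571, two-sided, chosen after the values were seen), so that the probe sets were not shown to differ in response. The call of Dsc2 was lost when any 1 of 6 samples was left out (adjusted p 0.0801 to 0.111).

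The other desmosome genes stayed near NC. Dsg2, desmoglein 2, had 6 probe sets at -0.07 to 0.15, and Dsp, the plaque protein desmoplakin, had 3 at -0.03 to 0.25. The 3 probe sets of plakophilin 2 (Pkp2) gave 0.01 to 0.05, and Pkp3 gave 0.12. Plakoglobin, Jup, shared by desmosomes and adherens junctions, was at 861 to 1066 in HF and 991 to 1161 in NC, with overlapping diets (log2 difference -0.22, adjusted p = 0.219).

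**Figure D5:**
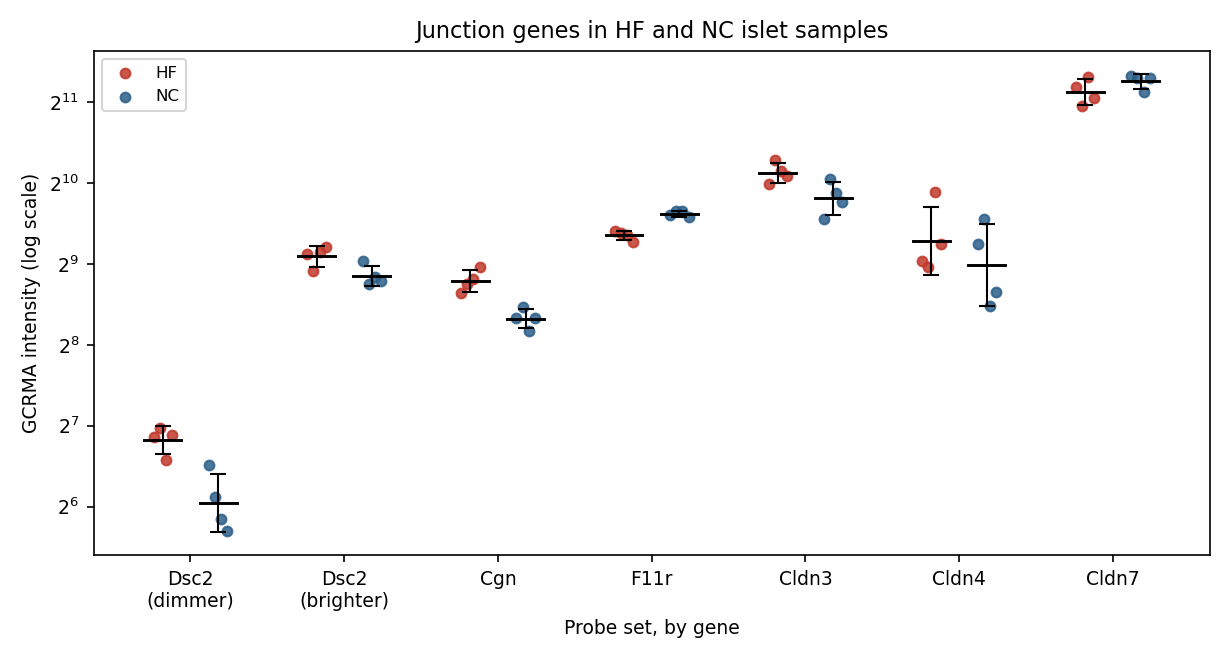
GCRMA intensity (log scale) of 7 probe sets of junction genes in the 4 HF and 4 NC samples, with points for samples and bars for the mean and SD of log2 values. The dimmer Dsc2 probe set (95.4 to 126 in HF, 51.7 to 91.5 in NC) and Cgn lie higher in HF and F11r lower, while Cldn4 spreads widely in both diets.

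Claudins, the strand-forming proteins of tight junctions, gave 0 calls in 12 measured probe sets of 8 genes with limma, and 2 of the 12 had an unadjusted p under 0.05, a share under the 20.8% of all measured probe sets. An unpaired t-test, adjusted, also called none of them. Cldn3, a sealing claudin, had 4 probe sets that all leaned higher. For the probe set with the highest mean HF was at 1019, 1245, 1132 and 1085, against 750.2, 1059, 942 and 867 in NC, where only NC 2 lay within the HF range. The 4 differences were 0.19 to 0.32 on the log2 scale, with adjusted p of 0.155 to 0.479. Cldn7, a claudin of simple epithelia, was at 2330.1, 1975, 2542 and 2128 in HF and at 2563, 2516, 2229 and 2514 in NC, with overlapping diets and a difference of -0.13 (adjusted p = 0.454).

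Cldn4 varied between samples of the same diet more than any other measured claudin. It was at 526, 497, 951 and 607 in HF and at 608, 754, 358 and 401 in NC. Its within-diet SD of 0.47 on the log2 scale was exceeded only by Aqp1 (0.72) and Krt19 (0.71) among the 60 measured probe sets above the array median in at least 1 sample, whose median was 0.14. The difference of 0.30 therefore came with an interval of -0.36 to 0.96, which held both no change and a change of the size of the fold limit. Cldn12 had differences of 0.12 and 0.13 and Cldn6 of -0.26, none of which passed. Cldn1, Cldn2 and Cldn15 were under the array median in all 8 samples, so that little can be read from their differences of -0.01, 0.00 and -0.16.

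Genes of the same pathways outside the list were read for comparison. Of 15 other duct genes 9 were measured and 0 were called with limma, while 3 passed the adjusted p below the fold limit, all lower, and 4 had an unadjusted p under 0.05, against 7.45% and 22.5% of all measured genes. These 3 were Tspan8, a tetraspanin (-0.53), Ezr, which ties the membrane to actin (-0.50), and Cd24a, a surface glycoprotein (-0.46). Sox9, the transcription factor that duct cells keep from the embryonic pancreas, was under the array median at 10.95 to 12.4 in HF and 11.9 to 12.7 in NC. Of 37 other junction genes 34 were measured and 1 was called lower, Cldn9, against 4.28% of all measured genes. The count was thus not above the share of the array. Cldn9 was at 17.9, 23.4, 13.5 and 19.6 in HF and 42.1, 30.03, 53.3 and 29.9 in NC (log2 fold change -1.05, adjusted p = 0.0361). The median log2 fold change of the 34 genes was -0.03.

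Of 11 other annexins and annexin partners 5 were measured and 2 were called lower, against 4.28% of all measured genes. S100a10, the partner of annexin A2, was at 2167, 1834, 1799 and 2528 in HF and at 3481, 3705, 3859 and 3527 in NC (log2 fold change -0.82, adjusted p = 0.00568). S100a6, a calcium-binding protein of the same family that binds annexins, was at 188, 239, 271 and 217 in HF and at 667, 765, 611 and 649.8 in NC (-1.56, adjusted p = 0.000982). Both were apart in all samples for these probe sets, as Anxa2 was. S100a10 had 3 measured probe sets, of which 2 were called lower, and the values are of the one with the highest mean. Anxa6 (0.07) and Anxa7 (0.09) were level. S100a4 differed by 0.05 (log2, SE 0.20) but spread widely in HF, at 127 to 244 against 150 to 184 in NC, so that a change was neither shown nor excluded.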

How the data were processed

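RNA of islets was measured on mouse expression arrays in 4 HF and 4 NC samples, with 1 array each. The authors computed 1 value per probe set by GCRMA in ArrayAssist Lite 3.4. The deposited values are linear intensities between 1.33 and 142713, and only the log2 was taken here. Precision is limited by the number of arrays. Probe sets were named from the platform annotation, and 56.8% of them were kept by the third-highest intensity over samples, the same number that the methods kept by present flags. The diets were tested with limma 3.58.1 under R 4.3.3 (functions lmFit and eBayes) over all kept probe sets, with Benjamini-Hochberg adjustment, and a gene was represented by its kept probe set with the highest mean. The procedure was tested on simulated data. Exact permutation was over the 70 ways to divide the samples into diets. SAM, the test the methods name for the arrays, was not run.

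The 48 genes, their classes and the other lists were chosen with earlier results of these data known. Samples are given in full for called genes and, in each class, for the brightest gene and the gene with the smallest p that was not called. Krt7, Prom1, Hes1, Ehf, F11r and Cldn4 were added after their values were seen. Of the lists of other duct, junction and annexin genes, called genes are named, and Tspan8, Ezr, Cd24a, Sox9, Anxa6, Anxa7 and S100a4 were added after their values were seen. Cell type markers are given as lists, with only the brightest stromal ones and the measured mesothelial ones named. Alternatives covered the filter, scaling, priors and sample weights, the choice of probe sets, the fold limit, an unpaired t-test and leaving out each sample. The methods name this t-test under general statistics and not for the arrays.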

Additional observations from a re-analysis of the deposited data

Results flagged for a closer look

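In 38 groups of 4 samples the highest or lowest sample was set against its neighbor, and 3 stood apart by more than the 95% limit for a single outlying value, where chance gives about 1 in 20 groups. All 3 were NC samples, and the cause was not tested. For Clu, NC 5 was at 17638 and the other 3 NC samples were at 14492 to 14877. For Hes1, NC 1 was at 97.8 and the others were at 68.8 to 73.0. For Cldn7, NC 4 was at 2229 and the others were at 2514 to 2563. None of these genes was called.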

How the results depend on the processing

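Anxa1, Anxa2 and Aqp1 were called lower in HF under every alternative run, each sample left out included. The count of probe sets called lower, 3, became 6 when the arrays were scaled on beta cell markers (Anxa3, Hes1 and Krt19 added), which moved the median of all measured probe sets to -0.11, against 0.02. It was 5 (Anxa3 and Krt19 added) with an intensity trend and robust prior, with 1 probe set per gene, with the mean of a gene's probe sets and with the unpaired t-test unadjusted, and it ranged from 3 to 4 with a sample left out. No fall is read from the calls of Krt19, which passed the filter through NC alone. The count called higher, 1, became 0 without a filter, with 1 probe set per gene, with the mean of a gene's probe sets and with the unpaired t-test adjusted, and 2 without a fold limit, which added Cgn. It ranged from 0 to 1 with a sample left out, being 0 without NC 2, NC 4, NC 5, HF 21, HF 22 or HF 24. The adjusted p of the dimmer Dsc2 probe set was 0.0902 without a filter. With the mean of its probe sets Dsc2 passed the adjusted p of limma (0.02375) but not the fold limit (log2 fold change 0.51). The duct-restricted median of -0.27 was -0.031 without a filter, where genes at the lowest levels enter, -0.40 under scaling to beta cell genes and -0.21 with the mean of a gene's probe sets, and ranged from -0.31 to -0.23 with a sample left out. Over the 9 of these genes above the array median in at least 1 sample, chosen after seeing the data, it was -0.30. The pan-epithelial median of 0.02 was -0.12 with scaling on beta cell markers, beside the shift of all probe sets above, and ranged from -0.02 to 0.05. Krt7 (-0.03) turned to 0.019 without HF 22 and ranged from -0.070 to 0.019 with a sample left out. Signals near the lowest level kept limit Krt19, Muc1, Cftr, Krt23, Cldn1, Cldn2 and Cldn15. No paired analysis was possible because the diets share no replicate number.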

Other observations

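The genes that did not pass the filter were at 4.32 to 4.61 in HF and 4.34 to 4.41 in NC for Aqp5, the water pore of serous glands, and at 4.81 to 5.02 in HF and 4.84 to 5.28 in NC for Krt20, a keratin of gut epithelium. Cldn8 was just under the lowest level kept in most samples, at 8.41, 6.12, 7.22 and 8.67 in HF and at 8.61, 8.56, 11.1 and 15.96 in NC, with NC 5 and NC 4 the highest. These values are at or under the limit of the filter in most samples, and no change was read from them.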
